A study of Homo sapiens with 4 samples.

Results

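The kinetochore, spindle and mitotic exit genes examined here were 54 genes, listed by symbol for their place in cell division, of 60612 genes in the count table. Each had 1 row of its own. They were measured by RNAseq of polyA RNA in IMR-32, a human line derived from a neuroblastoma in which MYCN is amplified. Hairpin expression in these cells depended on doxycycline, which both groups received at 1 µg/mL for 48 h. The shControl group (2 libraries) expressed a control hairpin, and the shNeuroD1 group (2 libraries) was given RNA interference against NeuroD1. The study used 2 hairpins against NeuroD1 whose names end in the same numbers as the library titles, and the labels do not say which hairpin each library carried, so these libraries may be replicates of 1 hairpin or of different hairpins. The genotype field of the labels calls the control cells WT and the others NeuroD1 knockdown, so shControl is the only control for the hairpin and for doxycycline. NeuroD1 is a basic helix-loop-helix transcription factor of the neural lineage, and how its loss bears on proliferation was a question of the study. Whether a group's libraries came from separate cultures is not stated in the labels, so the p-values measure the spread between these libraries, which may be technical.

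At mitosis each pair of sister chromatids is held by microtubules at the kinetochore, a layered protein complex built on centromeric chromatin. The inner kinetochore marks the centromere, the outer kinetochore binds microtubules, and the spindle checkpoint holds back anaphase until every kinetochore is attached. Cyclin-dependent kinase activity drives entry, while destruction of cyclins and of securin through the anaphase-promoting complex drives exit. RNA of most of these genes is low in G1 and peaks in G2 and M phase, so their level in a culture also follows how many cells are dividing. In bulk RNA, fewer dividing cells and less RNA per cell cannot be told apart.

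The genes are controlled in many cell types by short promoter elements, among them the cell cycle genes homology region, which MuvB complexes bind, CCAAT boxes, which NF-Y binds, and E2F sites. RefSeq promoters on GRCh38.p14, each 300 bases long and running from 250 bases before a transcript start to 50 bases from it, were found for 46 of the 54 genes in 56 entries. CENPH, CENPM, BUB3, TTK, BIRC5, TPX2, UBE2C and PIMREG had no entry. The stretches of 30 bases below are from members with some of the largest changes, with the matched element in capitals, and distances count the start base as 0. The first 3 lines hold the homology region TTTGAA on either strand, the next 2 hold CCAAT on either strand, and the last holds CAGCTG, a form of the E-box to which factors such as NeuroD1 bind.
SMC4: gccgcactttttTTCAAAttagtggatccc
NDC80: ccggcggagaatTTCAAAttcgaacggctt
NCAPG: tcgcgggaattaTTTGAAcgttcgagcggt
CENPU: tgctcggcccggATTGGctgttcggagcgg
ZWINT: taacctctgcagCCAATcgcctgccccggc
NDC80 E-box: cctggggtgacgCAGCTGggcgcgaccagc

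The SMC4 stretch is chr3:160399563-160399592 on the plus strand, its element begins 75 bases before a RefSeq start, and it lies in exons annotated by GENCODE 29 for SMC4 and, on the other strand, IFT80. The NDC80 homology region stretch is chr18:2571542-2571571 on the plus strand, in an exon of NDC80, and the element begins 3 bases before the RefSeq start. The NCAPG stretch, chr4:17810932-17810961 on the plus strand, is in an exon of NCAPG and the element begins 35 bases before the start. The CENPU stretch is chr4:184734113-184734142 on the minus strand, with 21 of its bases in an exon of CENPU and its element 34 bases before the start. The ZWINT stretch is chr10:56361308-56361337 on the minus strand, outside annotated genes, with its element 52 bases before the start. The E-box stretch of NDC80, chr18:2571443-2571472 on the plus strand, is in an exon of METTL4 on the other strand and its element begins 102 bases before the start. A match is a run of letters and was not tested for binding.

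The libraries and the target were examined first. Library totals ranged from 14665210 to 16482463 counts, and the 54 genes took 0.794% and 0.796% of counts in shControl but 0.486% and 0.491% in shNeuroD1. NEUROD1 (ENSG00000162992) was at 419 and 415 CPM (counts relative to library size, scaled by TMM, the unit of all levels below unless named) in shControl and at 63.7 and 58.2 CPM in shNeuroD1, or 14.6% of control. Mitochondrial genes held 4.37% and 4.59% of the shControl counts against 5.39% and 5.51% of those of shNeuroD1. Of 7 markers of adrenergic neuroblastoma, MYCN (1945 to 2025 CPM over the 4 libraries), PHOX2A, HAND2, GATA3 and ISL1 were expressed, whereas TH and DBH, enzymes of catecholamine synthesis, were low. TH was at 0.678 and 1.26 CPM in shControl and rose to 5.78 and 5.19 CPM in shNeuroD1, and DBH fell from 1.56 and 1.51 CPM to 0.789 and 0.722 CPM. In this list 3 were lower and 2 higher in shNeuroD1, where 28.2% of all genes tested were lower and 26.8% higher. Of 7 mesenchymal or Schwann-like markers 6 could be tested. In shNeuroD1 3 were higher, with log2 fold changes of 1.07 (CD44), 1.18 (VIM) and 1.10 (S100B). Lower were 2, SNAI2 (-0.53) and FN1 (-0.30). The summed level of the 6 was 305 and 307 CPM in shControl and 611 and 609.6 CPM in shNeuroD1, mostly VIM. SOX10 (0.543 to 1.07 CPM) and S100B (0.189 to 2.04 CPM, edgeR adjusted p 0.0476) were near 0, and PRRX1 was too low to test. The part of these differences in the results below was not tested.

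All 54 genes were lower in shNeuroD1 at an adjusted p under 0.05 (edgeR, Benjamini-Hochberg over 17537 genes), against 28.2% of all genes tested, and 0 were higher, against 26.8%. No member had a positive log2 fold change in edgeR, so 0 were higher at an unadjusted p under 0.05 too, and DESeq2 also called 54 lower and 0 higher. All 54 passed the filter on low counts, which kept genes by their counts in either group. In each of the 54, both shNeuroD1 libraries lay under both shControl libraries, a pattern that 37.7% of all genes tested showed (38.4% showed the opposite one). The median log2 fold change was -0.97, and the interquartile range ran from -1.14 to -0.70, while the median of all genes tested was 0.01. Summed over the 54 genes, the level was 8300 and 8261 CPM in shControl and 4690 and 4729 CPM in shNeuroD1, or 56.9% of control. The 54 genes thus moved in the same direction, but not to the same extent, from 29.01% of control for PIMREG to 84.1% for MKI67.

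**Figure D1:**
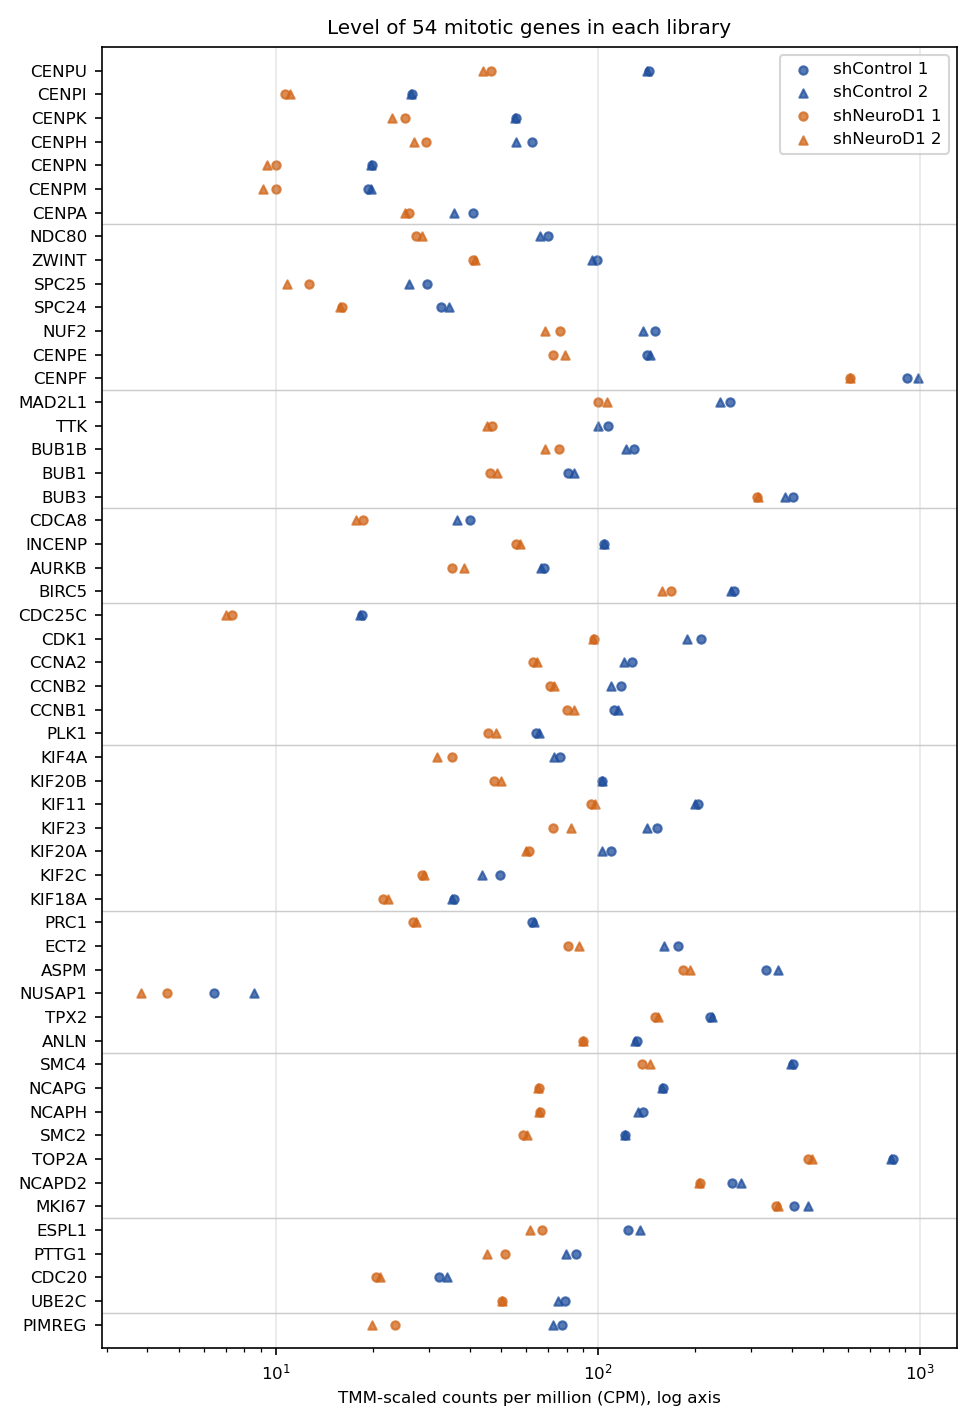
Level of each of the 54 genes (TMM-scaled CPM, log axis) in the 2 shControl (blue) and 2 shNeuroD1 (orange) libraries, with circles for replicate 1 and triangles for replicate 2 and grey lines between the role groups. In all 54 genes the orange points lie to the left of the blue points, by much in CENPU and PIMREG and by little in MKI67 and BUB3.

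The thresholds were set at 0.05 for the adjusted p and at -1 for the log2 fold change, and 26 of the 54 genes were past both, against 5.14% of all genes tested (8.79% were past both on the higher side). The threshold of -1 divided a continuum. CENPM (-1.03), ESPL1 (-1.01) and ECT2 (-1.01) lay just inside, and NUF2 (-0.99), CCNA2 (-0.95) and KIF23 (-0.92) lay just outside. The 95% interval of the log2 fold change was wholly below -1 in 14 genes, wholly above it in 22, and spanned it in 18. Standard errors of the log2 fold changes ran from 0.0397 to 0.192 with a median of 0.0573, so the range from -1.78 to -0.25 is many times the error of most single genes. Scaling by library size alone, which put the median of all genes tested at 0.12, left all 54 lower but only 14 past both thresholds.

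The inner kinetochore group held the histone H3 variant CENPA and 6 proteins of the constitutive centromere-associated network, and 7 of 7 were lower, with 6 past both thresholds and a median of -1.07. CENPU, a subunit that serves in docking Polo-like kinase at the kinetochore, had 144 and 142 CPM in shControl and 46.7 and 43.9 CPM in shNeuroD1. Its libraries differed far less within a group than between groups, and its log2 fold change was -1.66 (SE 0.0562, adjusted p 7.5e-22). CENPI was at 26.5 and 26.3 CPM against 10.7 and 11.1 CPM, a log2 fold change of -1.27 (SE 0.106). CENPK was at 55.6 and 55.2 CPM against 25.2 and 23.0 CPM (-1.20, SE 0.0756), and its partner CENPH at 62.6 and 55.5 CPM against 29.4 and 26.8 CPM (-1.07, SE 0.0764). CENPH, CENPI and CENPK belong to one subcomplex, and their 3 intervals overlapped. CENPN, which contacts the CENPA nucleosome, was at 19.9 and 19.8 CPM against 10.1 and 9.39 CPM (-1.03, SE 0.118). CENPM was at 19.3 and 19.8 CPM against 10.1 and 9.13 CPM (-1.03, SE 0.120). These low genes had wider errors, and their intervals reached past -1 on either side. CENPA itself fell least in the group, from 40.8 and 35.8 CPM to 25.9 and 25.2 CPM, with a log2 fold change of -0.58 (SE 0.0837, adjusted p 4.6e-07). The interval of CENPA, -0.75 to -0.42, did not overlap that of any of CENPU, CENPI, CENPK, CENPH, CENPN and CENPM. By counts the histone was thus reduced less than these 6 genes. This does not extend to the whole network, since CENPT, given below, had a log2 fold change of -0.11.

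In the outer kinetochore group 7 of 7 were lower, 4 of them past both thresholds, with a median of -1.07. NDC80, which grips the microtubule, was at 70.2 and 66.0 CPM in shControl and 27.2 and 28.4 CPM in shNeuroD1, with a log2 fold change of -1.29 (SE 0.0703, adjusted p 1.6e-16). The other subunits of its 4-protein complex fell as well. SPC25 was at 29.6 and 26.0 CPM against 12.7 and 10.8 CPM (-1.24, SE 0.109), SPC24 at 32.6 and 34.5 CPM against 16.1 and 15.9 CPM (-1.07, SE 0.0918), and NUF2 at 150.4 and 139 CPM against 76.6 and 68.6 CPM (-0.99, SE 0.0569). The gap between NDC80 and NUF2, which pair in the rod of the complex, was 0.30 on the log2 scale and their intervals did not overlap. ZWINT, a partner of KNL1, was at 99.3 and 96.2 CPM against 41.0 and 41.6 CPM (-1.24, SE 0.0599). The large proteins of the outer corona came last in the group. CENPE, a plus-end-directed kinesin, had a log2 fold change of -0.92 (SE 0.0532) and an interval that overlapped that of NUF2, and CENPF was at 915 and 988 CPM against 605 and 607 CPM (-0.65, SE 0.0410). CENPF was the gene with the most counts among the 54, and its interval lay above those of the 4 NDC80 complex subunits.

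Among the 5 spindle checkpoint genes, all lower, 2 were past both thresholds and the median was -0.80. MAD2L1, whose product sequesters CDC20, was at 257 and 239.6 CPM in shControl and 100.4 and 107 CPM in shNeuroD1, with a log2 fold change of -1.26 (SE 0.0494, adjusted p 2.9e-20). TTK, the kinase that starts the checkpoint signal, was at 108 and 99.8 CPM against 46.8 and 45.3 CPM (-1.17, SE 0.0601). The kinase BUB1 and the pseudokinase BUB1B had nearly the same change, each -0.80 (SE 0.0607 and 0.0565). BUB3, which carries both of them to KNL1, was at 403 and 381 CPM against 313 and 315 CPM, a log2 fold change of -0.32 (SE 0.0422, adjusted p 1.1e-07). Its groups were apart, at 80.2% of control, and the gap of 0.94 between MAD2L1 and BUB3 was the widest in the checkpoint group.

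The chromosomal passenger complex joins the kinase Aurora B (AURKB) to INCENP, survivin (BIRC5) and borealin (CDCA8), and corrects faulty attachments. 4 of 4 were lower, and CDCA8 alone was past both thresholds, at 40.0 and 36.5 CPM against 18.7 and 17.7 CPM (-1.07, SE 0.0882, adjusted p 4.9e-12). INCENP (-0.89, SE 0.0559) and AURKB (-0.87, SE 0.0667) had overlapping intervals. BIRC5 was at 265 and 259 CPM against 169 and 158 CPM (-0.68, SE 0.0458). The 3 members other than CDCA8 fell to between 53.96% and 62.4% of control, and the intervals of CDCA8 and BIRC5 did not overlap.

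**Figure D2:**
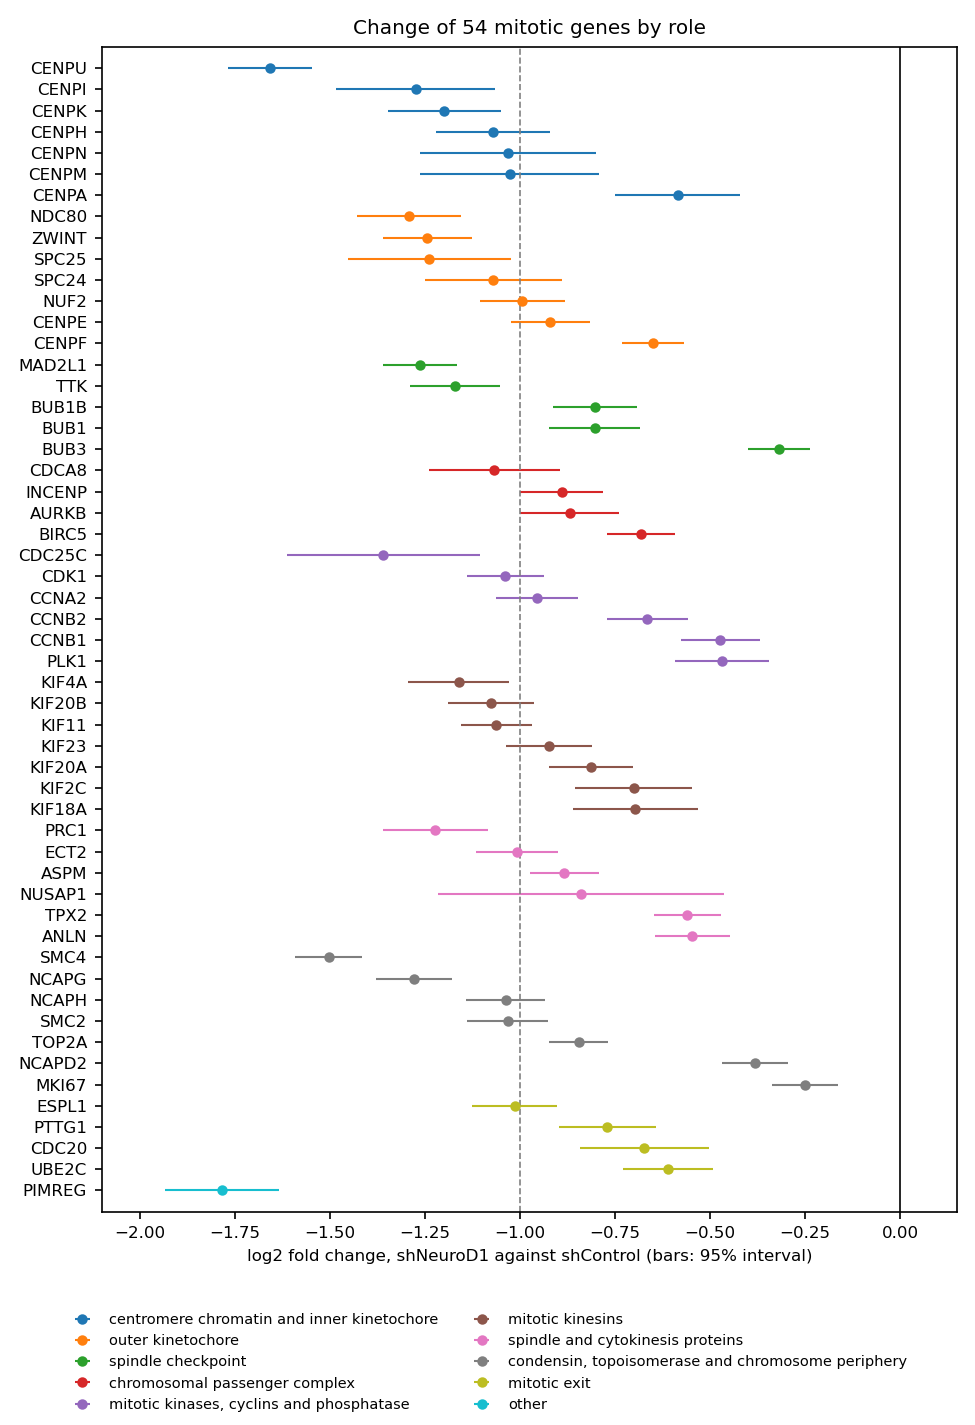
Log2 fold change of each of the 54 genes, shNeuroD1 against shControl, with bars for the 95% interval, coloured and grouped by role and ordered by size within a role. All intervals lie below 0 (solid line), 14 lie wholly below -1 (dashed line), and each role group except that of PIMREG alone holds genes on both sides of -1.

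The mitotic kinases, cyclins and the phosphatase CDC25C numbered 6, all lower, with 2 past both thresholds and a median of -0.81. CDC25C, which activates CDK1, was at 18.5 and 18.3 CPM against 7.30 and 7.03 CPM, a log2 fold change of -1.36 (SE 0.129, adjusted p 1.2e-10). CDK1, the kinase of mitotic entry, was at 209.5 and 189 CPM against 97.1 and 96.8 CPM (-1.04, SE 0.0516). Its cyclins were reduced by unequal amounts. CCNA2, which acts from S phase on, had a log2 fold change of -0.95 (SE 0.0547), CCNB2 of -0.66 (SE 0.0548), and CCNB1, at 113 and 116 CPM against 80.3 and 84.3 CPM, of -0.47 (SE 0.0528). The intervals of CCNA2 and CCNB1 did not overlap, with a gap of 0.48. By log2(FPKM + 1) they were close, with -0.78 for CCNA2 and -0.86 for CCNB1. CCNB1 had 24.2 and 17.6 FPKM in shNeuroD1, so no order between these cyclins is read from FPKM. PLK1, the Polo-like kinase of centrosome maturation and mitotic exit, fell least in the group, from 64.3 and 65.6 CPM to 45.6 and 48.3 CPM (-0.47, SE 0.0634, adjusted p 1.7e-07).

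All 7 mitotic kinesins were lower, 3 of them past both thresholds, with a median of -0.92. KIF4A, a chromokinesin that also works with PRC1 at the midzone, was at 76.6 and 73.4 CPM against 35.4 and 31.7 CPM (-1.16, SE 0.0680, adjusted p 9.9e-16). KIF20B, a cytokinesis motor, was at 103 and 103 CPM against 47.6 and 49.98 CPM (-1.08, SE 0.0579). KIF11, or Eg5, which pushes spindle poles apart, was at 204 and 200.01 CPM against 95.4 and 98.1 CPM (-1.06, SE 0.0478). These 3 motors were reduced to between 44.7% and 47.9% of control and their intervals overlapped. KIF23, of the centralspindlin complex, had a log2 fold change of -0.92 (SE 0.0576), KIF20A of -0.81 (SE 0.0563) and the microtubule depolymerase KIF2C of -0.70 (SE 0.0784). KIF18A, which dampens chromosome oscillation, was at 35.9 and 35.3 CPM against 21.6 and 22.3 CPM (-0.70, SE 0.0838, adjusted p 1.7e-08).

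Of the 6 spindle and cytokinesis proteins, all lower, 2 were past both thresholds and the median was -0.86. PRC1, which bundles antiparallel microtubules, was at 62.4 and 63.6 CPM against 26.7 and 27.3 CPM (-1.22, SE 0.0706, adjusted p 6.9e-16). ECT2, the exchange factor that activates RhoA at the division plane, was at 178 and 160.1 CPM against 80.7 and 87.1 CPM (-1.01, SE 0.0549). ASPM, of the spindle poles, had a log2 fold change of -0.88 (SE 0.0464) and TPX2, the activator of Aurora A, of -0.56 (SE 0.0449). Anillin (ANLN), a scaffold of the contractile ring, was at 132 and 131 CPM against 89.9 and 90.2 CPM (-0.55, SE 0.0503, adjusted p 5.7e-11), the smallest change in the group. By counts, but not by FPKM, NUSAP1 had the lowest level of the 54, at 6.45 and 8.56 CPM against 4.60 and 3.81 CPM. It also had the widest error (-0.84, SE 0.192, adjusted p 0.00041). Without shControl replicate 2 NUSAP1 no longer passed (-0.63, edgeR adjusted p 0.0821). An annotated gene on the same strand, AC087721.2, with 0 counts in the 4 libraries, covers 62.2% of the exon bases of NUSAP1, and AC068831.7 does so for 64.9% of those of PRC1 together with PRC1-AS1. Counts of these 2 genes may therefore hold only part of their reads.

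Condensin I packs chromosomes, topoisomerase II alpha (TOP2A) untangles them, and Ki-67 (MKI67) coats their surface. All 7 genes of this group were lower, with 4 past both thresholds and a median of -1.03. SMC4 (ENSG00000113810), an ATPase of condensin, was at 403 and 398 CPM in shControl and 138 and 145 CPM in shNeuroD1, with a log2 fold change of -1.50 (SE 0.0446, adjusted p 2.1e-23). NCAPG was at 159 and 158 CPM against 65.9 and 65.1 CPM (-1.28, SE 0.0515), NCAPH at 138 and 133 CPM against 66.2 and 65.9 CPM (-1.04, SE 0.0529), and SMC2 at 122 and 121 CPM against 58.6 and 60.2 CPM (-1.03, SE 0.0543). The fifth condensin I subunit, NCAPD2, was at 261 and 277 CPM against 207 and 207 CPM, a log2 fold change of -0.38 (SE 0.0444, adjusted p 8.8e-09). The gap of 1.12 between SMC4 and NCAPD2 was the widest within any complex compared here, and the interval of NCAPD2 lay above those of the other 4 subunits. SMC4 and SMC2, the ATPase pair shared by both condensins, did not move alike, at 35.3% and 48.9% of control. Exons of TRIM59 and IFT80 lie on the strand opposite SMC4, those of LCORL opposite NCAPG and those of MRPL51 opposite NCAPD2. Without strand in the counting, some reads of these genes could be mixed.

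By counts, TOP2A had the highest level per length among the 54, with a log2 fold change of -0.85 (SE 0.0397). It had 127.5 RPKM (CPM divided by exon length in kilobases, mean of 2 libraries) in shControl and 71.0 RPKM in shNeuroD1. Next in level in shControl were CENPF with 81.4 RPKM and BIRC5 with 68.7 RPKM, and NUSAP1 was lowest with 2.61 RPKM. The order differed by FPKM, where NUSAP1 had 67.7 and 54.3 FPKM in shControl. BUB3 had 98.2 and 108 FPKM in shControl, above TOP2A at 83.7 and 88.6 FPKM. Level and change were only loosely related across genes, with Pearson's r 0.29 and Spearman's rho 0.28 between log2 mean CPM and log2 fold change over 54 genes that share their libraries. MKI67, the proliferation marker, was at 408 and 451 CPM against 359 and 363 CPM, a log2 fold change of -0.25 (SE 0.0445, adjusted p 1.5e-05). It was the smallest change of all, at 84.1% of control, with the groups apart.

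The mitotic exit group covered CDC20 and UBE2C, an activator and an E2 enzyme of the anaphase-promoting complex, securin (PTTG1) and separase (ESPL1), which cleaves cohesin. 4 of 4 were lower with a median of -0.72. ESPL1 alone was past both thresholds, at 124.5 and 135 CPM against 67.0 and 61.8 CPM (-1.01, SE 0.0571, adjusted p 3.9e-16). Its inhibitor PTTG1 had a log2 fold change of -0.77 (SE 0.0647). The intervals of the pair nearly touched, at -1.125 to -0.901 for ESPL1 and -0.896 to -0.643 for PTTG1. Intervals matched to the F test would be slightly wider, so the pair is not called apart. CDC20 followed with -0.67 (SE 0.0870), and UBE2C was at 79.2 and 75.1 CPM against 50.5 and 50.6 CPM (-0.61, SE 0.0606, adjusted p 3.1e-10).

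PIMREG (ENSG00000129195, GENCODE 29 on GRCh38, chr17:6444415-6451469, plus strand), a mitotic regulator that interacts with CALM, had the largest change of the 54. It was at 77.3 and 72.4 CPM in shControl and 23.5 and 19.9 CPM in shNeuroD1, with a log2 fold change of -1.78 (SE 0.0767, adjusted p 3.5e-19). Its interval, -1.93 to -1.63, overlapped that of CENPU, -1.77 to -1.55, and of no other gene among the 54.

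Reads shared with other genes were examined for all 54. Exons of 32 genes overlapped no other annotated exon, and of these 32 were lower and 16 past both thresholds, with a median of -0.96. Of the 22 with an overlap, 19 shared it with a gene on the opposite strand, and whether the counting used strand is not given in the sources used here. Named pseudogene copies held at most 0.564% as many counts as the gene itself.

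The per-library FPKM tables, made from assembled transcripts, gave a second look at the same RNA. The FPKM of a gene was taken as the sum over its transcript starts, and 51 of the 54 genes could be fitted by limma on log2(FPKM + 1). BUB1B and PRC1 had no listed start under their own names and ASPM was listed in 1 library. In these values 50 of 51 had a negative difference, and 18 were lower at an adjusted p under 0.05, against 2.76% of all genes in that fit. In 43 of the 51 both shNeuroD1 libraries lay under both shControl libraries, against 29.3% of all genes in that fit. FPKM values of replicates were further apart, by a median of 0.18 (shControl) and 0.15 (shNeuroD1) on the log2 scale, than CPM values, by 0.08 and 0.05.

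**Figure D3:**
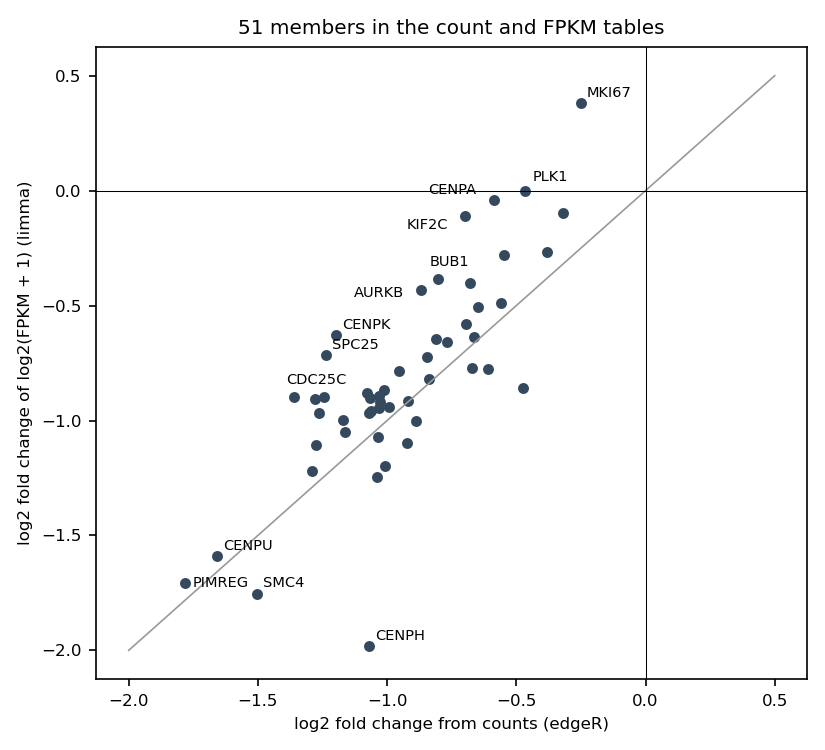
Log2 fold change, shNeuroD1 against shControl, of 51 genes from the count table (x axis) and from log2(FPKM + 1) summed over transcript starts (y axis), with a grey line where both are equal and names for genes that differ by over 0.4 and for PIMREG, CENPU and SMC4. PIMREG, CENPU and SMC4 are at the low end on both axes, CENPH is lower by FPKM, and MKI67 is below 0 by counts and above 0 by FPKM.

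The 3 largest falls by counts were also large by FPKM. PIMREG was at 27.2 and 24.4 FPKM in shControl and 7.28 and 7.12 FPKM in shNeuroD1, CENPU at 39.8 and 41.0 against 13.6 and 11.9 FPKM, and SMC4 at 61.8 and 62.6 against 19.8 and 15.9 FPKM. Some other large falls by counts were smaller on the log2(FPKM + 1) scale and did not pass. There CDC25C was at -0.90 (limma adjusted p 0.0766), SPC25 at -0.71 (adjusted p 0.265) and CENPK at -0.63 (adjusted p 0.160). CDC25C had low values, at 2.08 and 1.88 FPKM against 0.630 and 0.571 FPKM. With 0.1 added in place of 1 it was at -1.57 (limma adjusted p 0.0922). By log2(FPKM + 1) 7 of the 51 genes were lower past both thresholds, as were 201 of all 10084 genes in that fit. By counts 26 of the 54 were, where 5.14% of all genes tested were. NUSAP1, low in counts, had 67.7 and 54.3 FPKM against 36.1 and 31.9 FPKM, and the groups were apart. In 8 of the 51 genes the groups overlapped by FPKM, namely CENPA, BUB3, AURKB, PLK1, KIF2C, NCAPD2, MKI67 and UBE2C. Their differences on the log2(FPKM + 1) scale ran from -0.77 in UBE2C to 0.38 in MKI67, and none passed, with limma adjusted p from 0.401 to 0.998. MKI67 was at 9.21 and 22.6 FPKM against 17.5 and 21.1 FPKM, PLK1 at 11.1 and 17.2 FPKM against 14.998 and 12.8 FPKM, and CENPA at 12.7 and 20.6 FPKM against 17.5 and 14.1 FPKM. Some shControl values were far apart, as in CDK1 with 70.1 and 32.9 FPKM and UBE2C with 77.3 and 29.6 FPKM, where the CPM of each gene differed little between the same libraries. Across the 51 genes the 2 measures of change had Pearson's r 0.79 and Spearman's rho 0.77, as a description of genes read in the same 4 libraries.

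The wider mitotic machinery was followed in 117 other genes, all tested. Of these 93 were lower, 1 was higher and 23 passed in neither direction, where 28.2% of all genes tested were lower and 26.8% higher. Lower past both thresholds were 24, against 5.14% of all genes tested, and the median was -0.61. The 5 largest falls were in SGO1, the protector of centromeric cohesin (26.3 and 28.1 CPM against 8.55 and 9.00 CPM, -1.63, SE 0.112), the CDK1-inhibiting kinase PKMYT1 (-1.52, SE 0.0731), the inner kinetochore subunit CENPQ (-1.47, SE 0.102), SKA3 of the microtubule-tracking SKA complex (-1.46, SE 0.0840) and ARPP19 (-1.40, SE 0.0415). The gene that rose was the phosphatase CDC14B, from 35.8 and 35.2 CPM to 42.5 and 42.9 CPM (0.27, SE 0.0722, edgeR adjusted p 0.0021), and DESeq2 called 0 of the 117 higher.

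The rest of the kinetochore, spindle and cohesion machinery was counted by role. Of 14 further inner kinetochore genes 12 were lower (median -0.92), CENPQ and the CENPA chaperone HJURP (-1.31, SE 0.0646) among them, while CENPT, the other link to the outer layer, was at 43.0 and 39.4 CPM against 38.3 and 37.8 CPM and did not pass (-0.11, adjusted p 0.193). Of 18 further outer kinetochore and checkpoint genes 16 were lower (median -0.89), with KNL1 at -1.35 (SE 0.0592), and of 24 further spindle and cytokinesis genes 24 were lower (median -0.77). Of 17 genes of the anaphase-promoting complex and its regulators 8 were lower, against 28.2% of all genes tested, and 9 passed in neither direction. None was past both thresholds, and the median was -0.17. The subunits CDC27 (-0.52), CDC23 (-0.43) and ANAPC7 (-0.37) were among those lower. The catalytic subunit ANAPC2 was at 44.8 and 46.3 CPM against 41.5 and 47.3 CPM (-0.04, adjusted p 0.687), with the groups overlapping. Among 12 genes of cohesin and condensin II, 11 were lower, CDCA5, or sororin, the most (-1.39, SE 0.0589), and SMC1A was not (0.08, SE 0.0408, adjusted p 0.106).

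Entry and exit regulators divided within a pathway. MASTL, the Greatwall kinase, was at 92.9 and 90.4 CPM against 35.6 and 37.96 CPM (-1.32, SE 0.0626). Its substrates ARPP19 and ENSA, both inhibitors of the phosphatase PP2A-B55, differed, with ARPP19 at 633 and 643 CPM against 238 and 245 CPM and ENSA at 275 and 258 CPM against 266 and 266 CPM (0.00, SE 0.0438). Of 15 regulators of transcription of mitotic genes 10 were lower, against 28.2% of all genes tested, and 5 passed in neither direction. The median was -0.29. The lower genes included MYBL2 (-1.10, SE 0.0504), the pocket protein RBL1 (-1.10, SE 0.0798) and FOXM1, at 157 and 178 CPM against 95.5 and 96.3 CPM (-0.81, SE 0.0542). E2F4 (-0.02) and RBL2 (0.06) were among those that did not pass. CDKN1A, the p21 inhibitor, was at 64.3 and 63.8 CPM against 59.1 and 65.5 CPM and its groups overlapped (-0.04, adjusted p 0.611).

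**Figure D4:**
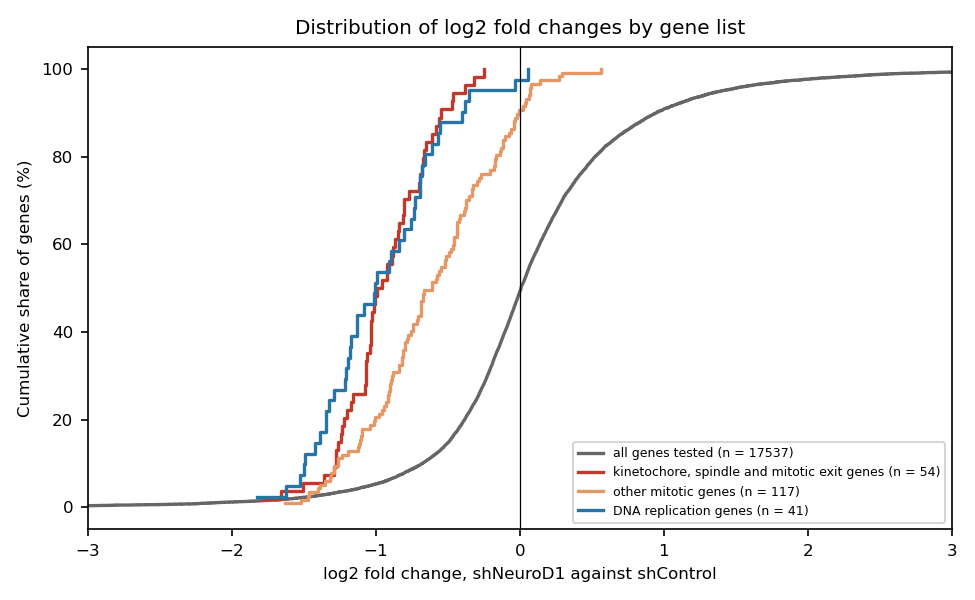
Cumulative share of genes (%) against log2 fold change, shNeuroD1 against shControl, for all 17537 genes tested, the 54 kinetochore, spindle and mitotic exit genes, 117 other mitotic genes and 41 DNA replication genes (values beyond 3 are not drawn). The curve of the 54 genes reaches 100% below 0 and runs near that of the DNA replication genes, while the curve of all genes crosses 50% near 0.

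DNA replication genes, which act earlier in the cell cycle, were set beside the 54 genes. Of 41 such genes 39 were lower and 21 past both thresholds, against 28.2% and 5.14% of all genes tested. Their median was -1.01, and their summed level was 50.1% of control. PCNA, the sliding clamp, was at 308 and 284 CPM against 109 and 117 CPM (-1.39, SE 0.0496), and CDC6, which loads the helicase, at 122 and 122 CPM against 34.1 and 34.8 CPM (-1.83, SE 0.0594). The replication genes were thus reduced in the same samples, and no test was made between the lists.

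The promoters of the 54 genes were read for the elements shown above. TTTGAA on either strand was in 66.1% of the 56 member promoters, against 15.2% of 35116 promoters of the same length and 10.7% of those of genes tested. CCAAT on either strand was in 73.2% against 34.6% of all promoters and 34.5% of those of genes tested, and both elements stood in 51.8% against 5.90%. In 51.8% of the member promoters a TTTGAA match began no more than 50 bases before the start, or after it, against 4.62% of all. An E2F site, searched on either strand as TTCCCGC, or with the letters TTGGCGC, or with the letters TTCGCGC, was in 30.4% against 11.03% of all promoters and 15.8% of those of genes tested, and the E-box of NeuroD1, as CAGATG or with the letters CAGCTG, in 21.4% against 29.8% and 25.9%. Matches of different elements can overlap in a promoter.

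**Figure D5:**
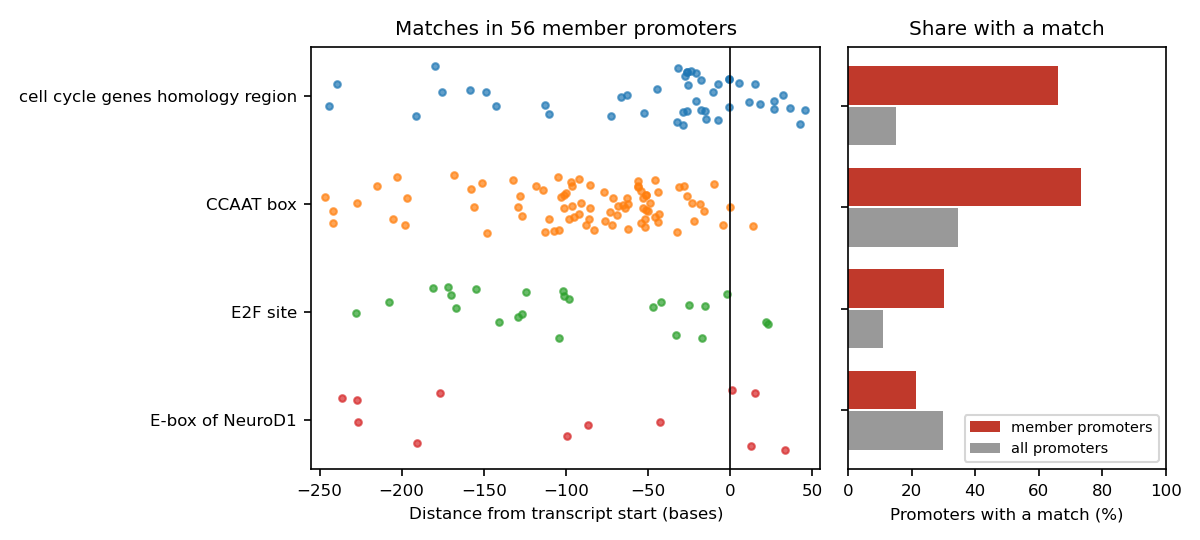
Left, distance in bases from the transcript start of the centre of each match in 56 member promoters, by element (points are spread vertically only for legibility). Right, percentage of member promoters (red) and of all 35116 promoters (grey) with a match, where TTTGAA (the cell cycle genes homology region) is in 66.1% against 15.2% and the E-box in 21.4% against 29.8%.

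Among the 46 genes the size of the fall was compared by element. The median log2 fold change was -1.01 in the 33 genes with TTTGAA in a promoter and -0.92 in the 13 without, and -0.94 in the 36 with CCAAT against -1.01 in the 10 without. For the E2F site it was -1.14 in 14 genes with and -0.90 in 32 without a match, and for the E-box -0.92 in 9 with and -0.99 in 37 without. No test was made between these medians. NDC80 held both TTTGAA and an E-box, and SMC4 both TTTGAA and an E2F site, whereas BUB3 and PIMREG, near the ends of the range of change, had no promoter entry.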

How the data were processed

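Raw read counts per Ensembl gene were deposited by the authors for 4 libraries (made, per the submitters' processing notes, with cutadapt 1.9.1, HISAT2 2.0.1 and HTSeq 0.6.1 on hg38; strand setting not given in the sources used here). The authors also deposited FPKM values of transcript starts per library. Columns of the authors' own comparison (fold changes and p-values) were not used. Symbols were matched for 60401 of 60612 IDs, with coordinates from GENCODE 29.

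Counts were fitted in edgeR 4.0.16 (R 4.3.3) with filterByExpr (minimum count 10), TMM and the two-sided quasi-likelihood F test, adjusted by Benjamini-Hochberg over all 17537 genes. Standard errors are the log2 fold change divided by the square root of F. The 95% intervals were built from them with the multiplier of a normal distribution, so they are slightly narrower than the F test implies. FPKM was tested with limma 3.58.1 on log2(FPKM + 1) for genes averaging 1 FPKM or more. The study used DESeq2 (version not given), and DESeq2 1.42.0 was run here as an alternative. Scripts were tested on simulated data. Replicates differed beyond sampling noise (chi-square per degree of freedom 2.53 and 1.54).

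The members and gene lists were chosen with earlier results of these data known. Named are all members, those past both thresholds and the largest and smallest change of each role with their values per library, and, of other mitotic genes, the 5 largest falls and any rise. Other genes named were chosen after their values were seen. From the marker lists, 2 genes are not reported here.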

Additional observations from a re-analysis of the deposited data

How the results depend on the processing

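The count of members lower (54) was unchanged in the fits with DESeq2 size factors, library size alone, no filter, a mean of at least 1 CPM and DESeq2. Members past both thresholds fell from 26 to 14 with library size alone and to 12 by glmTreat against a log2 fold change of 1. Library size alone also moved the members' median from -0.97 to -0.86 and other mitotic genes higher from 1 to 8, and lower calls made up 37.3% of all calls in place of 51.25%. DESeq2 gave 0 other mitotic genes higher (88 lower), 2757 genes higher in place of 4698 and 998 past both in place of 1541. By limma on log2(FPKM + 1) and log2(FPKM + 0.1), 18 and 17 members were lower, 7 and 11 past both, 14 and 14 other mitotic genes lower and 0 and 0 higher, 278 and 257 genes lower, 246 and 206 higher, 201 and 206 lower past both and 186 and 174 higher past both, with a median of -0.88 by the first. MKI67 turned to 0.38 and 0.41, and PLK1 to 0.00055 by the second. The causes were not tested. Leaving out 1 library, with a lone library assumed to vary like the other group, gave 53 to 54 members lower (NUSAP1 was lost without shControl replicate 2), 24 to 27 past both, medians of -0.997 to -0.95, 0 to 1 other mitotic genes higher (0 without shControl replicate 2) and 2828 to 3860 genes higher in all. With the replicate number as a block, 54 members were lower, 26 past both, with a median of -0.97. No shared shift of same-numbered libraries was seen (correlation of same-numbered deviations 0.03 over 10560 genes). That value cannot show whether such libraries were prepared together. With 2 libraries a group, errors rest on a spread shared across genes, and genes with few counts such as NUSAP1 are least certain.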
